A study of Arabidopsis thaliana with 12 samples.

Results

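A set of 103 genes of Arabidopsis thaliana, a small flowering plant, stood lower after 3 h at 4 °C than before cold, out of 24616 genes in the deposited table. They were chosen by level. A member had a mean of at least 100 in wild type at 0 h, a log2(mean + 1) at least 1.3 lower at 3 h, both 3 h libraries below both 0 h libraries, and a mean in cbfs-1 at 24 h under 1.5 times that of wild type at 24 h. Levels are read counts per gene that the authors divided by 1 size factor per library, here called normalized counts. The wild type was Col and the mutant was the line cbfs-1, both grown on half-strength Murashige and Skoog medium in long days at 22 °C and sampled whole at 14 days. The 6 groups, each with 2 libraries, were Col at 0 h, Col after 3 h and Col after 24 h at 4 °C, and cbfs-1 at the same 3 times. Whether the 2 libraries of a group were grown apart is not stated in the labels. The spread behind each p-value is that between these libraries and may be technical.

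Seedlings left in the warm for the same hours were not analysed here, so cold and time of day cannot be told apart. In whole seedlings fewer cells of a type and less RNA per cell cannot be told apart either. The libraries held 16849042 to 22800552 recovered reads, and 3 reads corresponded to 2.46 to 3.28 normalized counts. The line is named for the CBF genes, whose products switch on cold-regulated genes. CBF3 stood at 6133 and 7126 in Col at 3 h and at 1158 and 1095 in cbfs-1, while CBF1 went from 1129 and 2023 in Col to 1540.4 and 2475 in cbfs-1 and CBF2 from 5093 and 6769 to 7569.9 and 8377. Reads of all 3 genes, which are close paralogs with an uncertain division of reads, were thus present in the mutant libraries. The sources used here do not state the lesion. Summed levels of 5 light-harvesting and Rubisco genes lay between 555082 and 676611 in all libraries, those of 8 root markers between 2574 and 4243 with the lowest at 24 h, and those of 5 floral and seed markers between 3.17 and 23.0.

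As background, the level of a transcript is set by its synthesis and its decay, and short-lived plant transcripts are known to include those of transcription factors, of ubiquitin ligases and of the small SAUR proteins, which auxin induces and which promote cell expansion. Ubiquitin ligases mark other proteins for destruction. LSU proteins are small proteins whose transcripts accumulate when a plant runs short of sulfur.

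The promoter windows of 3 members are shown because these members stood low at 3 h and hold, or lack, the sequence elements counted in all members. Each is the 300 bases before the annotated start of the gene, read 5′ to 3′ on the strand of the gene from the RefSeq TAIR10.1 genome by locus identifier. The deposited table gives no coordinates. Capitals mark the G-box (CACGTG, its own reverse complement) and the PBE-box (CACATG on either strand), both known as binding sites of bHLH proteins such as the PIF factors. LSU1 and LSU3 lie next to each other, with no other protein-coding gene between them, and all 3 genes are on the minus strand. The windows are chr3:18375941-18376240 for LSU1, chr3:18373148-18373447 for LSU3 and chr4:18125560-18125859 for AT4G38840 (SAUR14).
LSU1: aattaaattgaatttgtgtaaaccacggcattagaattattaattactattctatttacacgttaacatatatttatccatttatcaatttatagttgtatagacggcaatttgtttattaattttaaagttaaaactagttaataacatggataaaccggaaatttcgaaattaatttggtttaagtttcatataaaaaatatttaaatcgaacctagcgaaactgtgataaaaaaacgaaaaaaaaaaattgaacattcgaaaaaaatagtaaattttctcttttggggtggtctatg
LSU3: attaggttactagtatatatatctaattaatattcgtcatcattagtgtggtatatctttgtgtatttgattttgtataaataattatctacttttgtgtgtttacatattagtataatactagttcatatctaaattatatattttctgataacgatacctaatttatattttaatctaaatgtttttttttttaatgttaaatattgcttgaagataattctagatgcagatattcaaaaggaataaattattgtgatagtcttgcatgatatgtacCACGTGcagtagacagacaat
AT4G38840: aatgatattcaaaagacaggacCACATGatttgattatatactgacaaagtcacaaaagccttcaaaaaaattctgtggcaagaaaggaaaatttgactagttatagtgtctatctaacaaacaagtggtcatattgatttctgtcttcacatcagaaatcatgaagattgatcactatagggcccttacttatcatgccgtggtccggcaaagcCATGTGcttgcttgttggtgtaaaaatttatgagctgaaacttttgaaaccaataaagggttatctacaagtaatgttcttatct

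LSU3 had a G-box that began 21 bases before its start, AT4G38840 had PBE-boxes that began 278 and 85 bases before, and LSU1 had neither in this window. A G-box was found on either strand in 14 of the 103 member windows (13.6%) and in 7.97% of the 20556 windows of all genes tested. The PBE-box was found in 20 member windows (19.4%, against 13.1%), and TATCCA, an element of sugar-responsive promoters, in 25 (24.3%, against 16.6%). The auxin response element TGTCTC was in 17 windows (16.5%, against 12.8%), and the sulfur response core GAGAC, which overlaps every TGTCTC on the other strand, in 37 (35.9%, against 29.8%). Of the windows shown, those of LSU1 and LSU3 held no GAGAC and that of AT4G38840 held no TGTCTC, on either strand. The elements with a lower share among members were TGGGCC (8.74%, against 16.9%), CCGAC, the core of the site that CBF proteins bind (11.7%, against 14.8%), AAAAATCT (6.80%, against 7.91%) and AAATATCT, the evening element (4.85%, against 5.84%). These shares describe letters in a window and were not tested.

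In Col the choice fixed the direction at 3 h, so the Col values are a description. The median over members was 351 normalized counts at 0 h and 104 at 3 h, and the median share of the 0 h level left at 3 h was 30.5%. The 3 h level ranged from 5.11% of the 0 h level in AT1G14200 to 39.9% in AT1G72430. Members covered a wide range of abundance, from 100.5 in AT2G14247 to 14923 in VTC2 at 0 h. The first 3 criteria were met by 115 genes, which is 0.467% of the whole table, and the last criterion left out 12 of these. Just inside the limit of -1.3 lay AT1G11700 (-1.33), AT1G72430 (-1.32) and SAUR24 (-1.31), and just outside lay AT4G24700 (-1.298), SIM (-1.296) and UP6 (-1.292), so the edge has no gap.

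The cbfs-1 libraries at 0 h and 3 h took no part in the choice and gave the only test. They were not independent of the Col libraries used in the choice. Over all genes tested, deviations from the group mean in libraries of the same replicate number correlated between the genotypes. The values were 0.49 at 0 h and 0.56 at 3 h. Of the 103 members 81 fell in cbfs-1 at 3 h, 0 rose and 22 did not pass, at a Benjamini-Hochberg adjusted p below 0.05 over all 20666 genes tested with limma. Over all genes tested 499 fell, which is 2.41%, and 1329 rose (6.43%), against 78.6% of members that fell. The median log2 change of the members was -1.64, and of all genes -0.02. All 103 members had both cbfs-1 3 h libraries below both 0 h libraries, which held for 26.2% of all genes, and 96 were at least 2-fold lower, which held for 1.96%. The median share of the 0 h level left at 3 h in cbfs-1 was 32.7%. Because the choice asks for well separated Col libraries it can lower the shared estimate of the spread. A fit on the 6 cbfs-1 libraries alone called 85 members, 79 of the 81 among them, and 459 genes (2.22%), edgeR on recovered reads called 82 members (2.82% of all genes) and DESeq2 88 (2.67%). Without cbfs-1 3 h replicate 1 the count of members was 44 (113 of all genes), and without cbfs-1 0 h replicate 2 it was 50 (156 of all genes). Of the 29 called members described by name under the naming rule, 18 kept their call without each cbfs-1 0 h or 3 h library in turn, and 11 lost it without at least 1. The 11 were AT1G72430, AT3G10040, AT3G59940, AT4G32480, AT4G33040, AT4G38840, BBX15, BEE3, NAP, RAV2 and SAUR68.

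**Figure D1:**
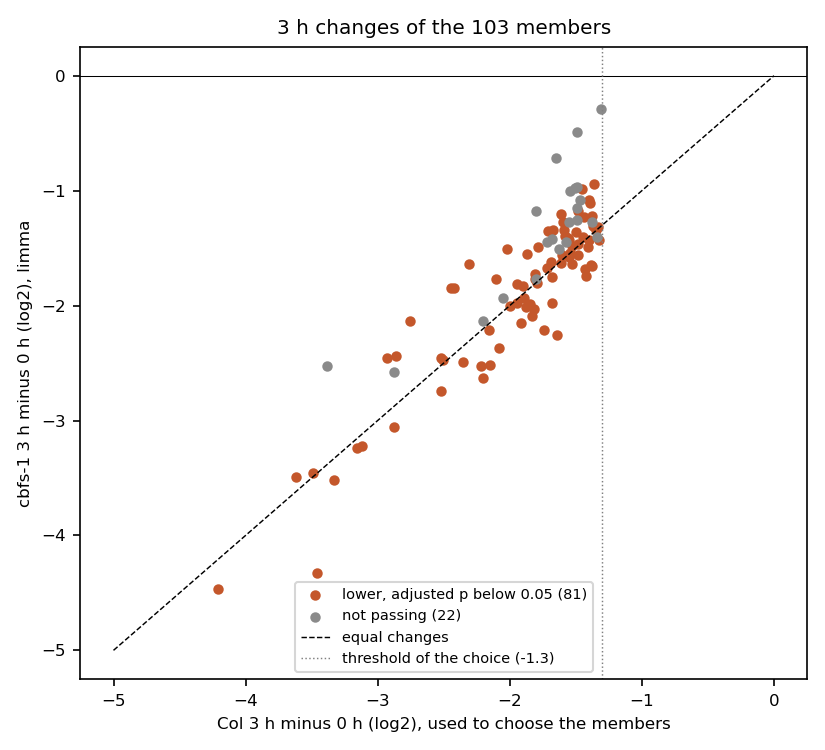
Change from 0 h to 3 h of each of the 103 members in Col (x axis, log2, used to choose them) and in cbfs-1 (y axis, log2, from limma). The 81 members that fell in cbfs-1 are in orange and the 22 that did not pass in grey, and every point lies below 0, with SAUR24 highest at -0.29.

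Across the 103 members the 3 h change in cbfs-1 correlated with that in Col at Pearson's r = 0.89, a description over genes of which the Col values were cut at a limit. In 68 members the change was smaller in cbfs-1 than in Col, a direction that a choice on the Col values favours and that was not tested. The change in cbfs-1 ranged from -4.47 in AT1G14200 to -0.29 in SAUR24.

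**Figure D2:**
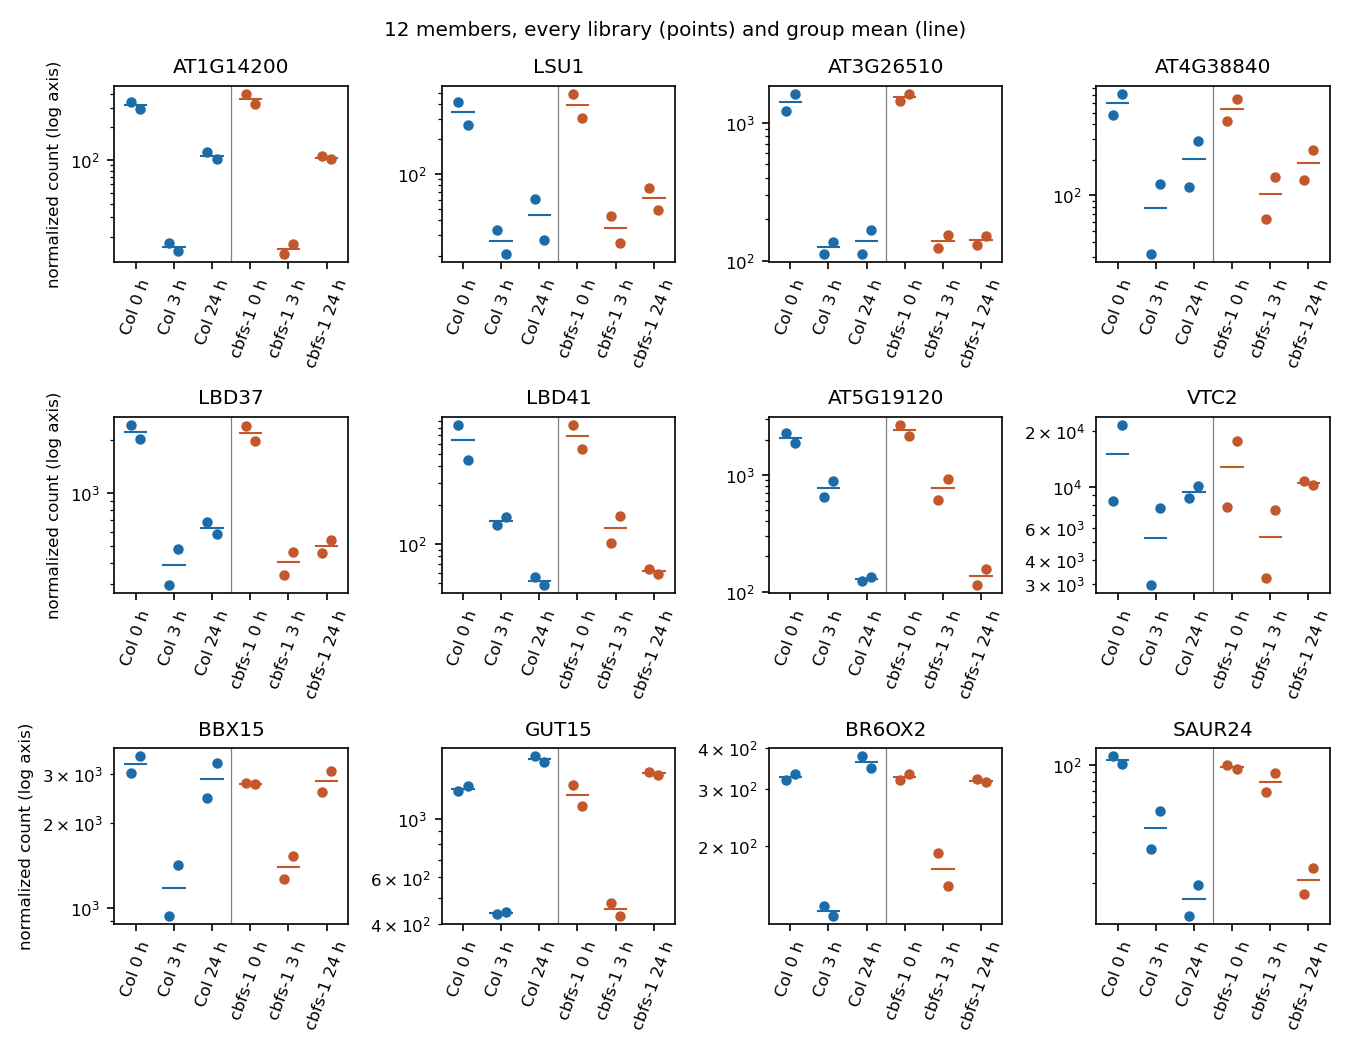
Normalized counts (y axis, log scale) of 12 members in the 12 libraries, with Col in blue, cbfs-1 in orange, points for libraries and a line for the group mean. AT1G14200 drops most at 3 h, LBD41 and AT5G19120 are lower still at 24 h, and GUT15, BBX15 and BR6OX2 are back near their 0 h levels.

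The member with the lowest 3 h level relative to 0 h in both genotypes was AT1G14200, which encodes a RING/U-box protein, a class that includes many ubiquitin ligases. AT1G14200 measured 341 and 289.7 in the Col libraries before cold, 17.5 and 14.7 after 3 h and 118 and 101 after 24 h, and in the mutant it measured 400.3 and 323, then 13.8 and 17.0, then 108 and 101. The 0 h and 3 h groups were far apart in both genotypes, and the 24 h libraries lay between them (34.9% of 0 h in Col and 28.9% in cbfs-1). In cbfs-1 it fell by a log2 change of -4.47 (SE 0.18, adjusted p = 8.47e-06). With 10 added in place of 1 before the log, the change was -3.87, and with 1 added to TMM-scaled CPM -3.47. AT3G26510 measured 1209 and 1608 in the Col libraries before cold, 112 and 138 after 3 h and 111 and 168 after 24 h, and in the mutant it measured 1429 and 1610.0, then 123 and 154, then 130.4 and 151. This gene for an Octicosapeptide/Phox/Bem1p (PB1) domain protein was low at both cold times (log2 change -3.45, SE 0.22, adjusted p = 3.71e-05 in cbfs-1 at 3 h).

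The low-sulfur genes LSU1 and LSU3, shown above with their promoters, were among the 10 members lowest at 3 h relative to 0 h in Col. LSU1 measured 414 and 264 in the Col libraries before cold, 32.8 and 20.5 after 3 h and 61.4 and 27.3 after 24 h, and in the mutant it measured 488 and 301, then 43.3 and 25.5, then 75.4 and 48.9. LSU3 measured 303 and 107 in the Col libraries before cold, 14.2 and 21.3 after 3 h and 100.5 and 45.8 after 24 h, and in the mutant it measured 407 and 165, then 16.7 and 8.49, then 125 and 71.6. Neither gene overlapped between 0 h and 3 h, which the choice required in Col and which held for every member in cbfs-1. In cbfs-1 both fell at 3 h, LSU1 by a log2 change of -3.49 (SE 0.45, adjusted p = 0.00142) and LSU3 by -4.32 (SE 0.62, adjusted p = 0.00247). For LSU3 these other scales gave -3.60 and -3.17. The pair are neighbouring paralogs, so the division of reads between them is uncertain. Of the 17 low-sulfur genes listed, 16 had a matching locus and symbol, of which 6 fell in cbfs-1 at 3 h, 0 rose and 10 did not pass, with a median log2 change of -0.60 (all genes -0.02). The others that fell were LSU2 (-2.32, SE 0.15), ATSDI1, a regulator that curbs glucosinolate synthesis under sulfur shortage (-2.79, SE 0.23), and APR1 and APR3, which encode the reductase of sulfate assimilation (-1.27, SE 0.18, and -0.68, SE 0.13). LSU2 and ATSDI1 met the first 3 criteria and are not members because they stood higher in cbfs-1 at 24 h. LSU2 was at 501 and 403 in Col and 759 and 612 in cbfs-1 at that time, and ATSDI1 at 103 and 87.7 and 219 and 125. The gene of the list without a matching symbol was AT1G04770, which is a member and also fell (-3.24, SE 0.37). LSU4 (0.10, SE 0.20) and the sulfate transporter gene SULTR1;1 (-0.45, SE 0.58) did not pass.

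AT1G04770 measured 815 and 709.6 in the Col libraries before cold, 50.3 and 119 after 3 h and 226 and 272 after 24 h, and in the mutant it measured 887 and 647, then 60.04 and 105, then 248 and 274. OXS3 measured 327 and 229 in the Col libraries before cold, 23.0 and 39.3 after 3 h and 34.9 and 67.3 after 24 h, and in the mutant it measured 352 and 286, then 23.6 and 46.2, then 36.6 and 44.4. AT1G04770 encodes a tetratricopeptide-repeat protein and OXS3 is named for oxidative stress. Both fell in cbfs-1 at 3 h (log2 change -3.24, SE 0.37, adjusted p = 0.000807, and log2 change -3.22, SE 0.40, adjusted p = 0.00115), and both had a lower 3 h level in replicate 1 than in replicate 2 in each genotype. The uncharacterized AT2G14247 was at 46.6 and 120.2 before cold and 9.84 and 15.1 after 3 h in cbfs-1. The likewise uncharacterized AT5G05250 was at 205 and 472 before cold and 21.7 and 119.7 after 3 h. Neither passed (adjusted p = 0.0553 and 0.129), and for both the 0 h replicates were more than 2-fold apart.

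SAUR genes made up 8 of the members, of 19 SAUR-like genes with a Col 0 h mean of at least 100. In cbfs-1 5 of the 8 fell and 3 did not pass, with changes from -2.46 to -0.29. AT4G38840 measured 479 and 718 in the Col libraries before cold, 31.7 and 124 after 3 h and 118 and 286 after 24 h, and in the mutant it measured 428 and 646, then 63.0 and 142, then 135 and 243. Replicate 2 was the higher library in all 6 groups, and the cbfs-1 change of this gene (SAUR14) passed narrowly (log2 change -2.46, SE 0.66, adjusted p = 0.048), with an adjusted p of 0.299 without cbfs-1 3 h replicate 1. AT2G21210 measured 699 and 742 in the Col libraries before cold, 73.3 and 138 after 3 h and 188 and 228 after 24 h, and in the mutant it measured 574 and 679, then 100.4 and 199, then 183 and 212. AT2G21210 (SAUR6) fell in cbfs-1 (log2 change -2.13, SE 0.33, adjusted p = 0.00397). AT4G38860 (SAUR16) was at 663 and 612 before cold and 246 and 323 after 3 h in cbfs-1 and did not pass (adjusted p = 0.0676), and SAUR68 was at 139.7 and 129.7 before cold and 45.3 and 73.5 after 3 h and fell (-1.21, SE 0.30, adjusted p = 0.0379), a call lost with the 6 cbfs-1 libraries alone (limma, adjusted p = 0.0677). SAUR24 was at 112 and 101 and then 31.7 and 53.2 in Col, but at 99.3 and 93.7 before cold and 68.9 and 89.6 after 3 h in cbfs-1 (adjusted p = 0.632). At 24 h all 8 were still low in Col. SAUR24 was then at 12.7 and 19.5 in Col and 17.2 and 24.5 in cbfs-1, below its 3 h libraries in both. Over all 56 SAUR-like genes tested, 10 fell in cbfs-1 at 3 h, 3 rose and 43 did not pass, with a median change of -0.83. SAUR genes include close copies, so reads may be shared among them. Of 11 auxin response genes of other families 0 fell and 2 rose, the repressor genes IAA2 and IAA5.

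Transcription factors were found by words in the annotation. The words were set with the members known, and some came from the names of members such as BEE3. The share given for comparison may thus be an undercount. Transcription factors so found were 20 of the 103 members (19.4%, against 3.61% of the 14842 genes with a Col 0 h mean of at least 100), and 16 of them fell in cbfs-1. Among these were the 3 LOB-domain members, of 7 LOB-domain genes at that level. LBD37 measured 2435 and 2025 in the Col libraries before cold, 296 and 479.7 after 3 h and 683 and 582 after 24 h, and in the mutant it measured 2404 and 1973, then 341 and 461, then 452 and 537. LBD37, which represses nitrate-responsive and anthocyanin genes, fell in cbfs-1 (log2 change -2.46, SE 0.23, adjusted p = 0.000284). LBD41 measured 839 and 446 in the Col libraries before cold, 141 and 161 after 3 h and 55.0 and 47.8 after 24 h, and in the mutant it measured 838 and 548, then 102 and 166, then 63.6 and 58.9. LBD41, known as a gene that rises under low oxygen, fell too (log2 change -2.37, SE 0.32, adjusted p = 0.00181). In LBD41 the 24 h libraries lay below the 3 h libraries in both genotypes. AT3G10040 (HRA1), which damps the low-oxygen response, showed the same order. AT3G10040 measured 352 and 186 in the Col libraries before cold, 105 and 65.5 after 3 h and 19.0 and 22.4 after 24 h, and in the mutant it measured 358 and 219.6, then 59.1 and 56.6, then 11.9 and 24.5, and it fell at 3 h (log2 change -2.26, SE 0.40, adjusted p = 0.00809). LBD4 fell as well (-1.98, SE 0.38).

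RAV2, an AP2/B3 factor also named TEMPRANILLO 2, was the most abundant transcription factor gene after BBX15. RAV2 measured 3413 and 1542 in the Col libraries before cold, 646 and 685 after 3 h and 665 and 619 after 24 h, and in the mutant it measured 3956 and 2030.3, then 699 and 784, then 813 and 668. It fell in cbfs-1 (log2 change -1.94, SE 0.36, adjusted p = 0.0095). Its 0 h replicates were 2-fold apart or nearly so in both genotypes, with replicate 1 higher, whereas its 3 h replicates were close. BBX15 measured 3024 and 3461 in the Col libraries before cold, 935 and 1427 after 3 h and 2467 and 3264 after 24 h, and in the mutant it measured 2767 and 2757, then 1267 and 1533, then 2573 and 3055. This B-box gene fell at 3 h (log2 change -0.99, SE 0.20, adjusted p = 0.0156), and its 24 h libraries overlapped those at 0 h in both genotypes. BEE3, a bHLH factor of the early brassinosteroid response, was at 390.0 and 346 before cold and 93.5 and 123 after 3 h in cbfs-1. AT4G39780, annotated as an integrase-type DNA-binding protein, was at 302 and 331 before cold and 91.5 and 137 after 3 h. NAP, which promotes leaf senescence, was at 431 and 477 before cold and 97.4 and 214 after 3 h. These 3 genes fell, with log2 changes of -1.77, -1.49 and -1.64 (adjusted p = 0.0116, 0.00102 and 0.0473). PYE, a regulator of the iron-deficiency response, was at 114 and 199 before cold and 87.6 and 95.2 after 3 h in cbfs-1 and did not pass (log2 change -0.71, SE 0.41, adjusted p = 0.362). In Col its 0 h libraries stood at 120.1 and 319, so its replicates were more than 2-fold apart.

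By their annotated product names, 10 members are RING, U-box or RING-H2 genes and 2 are F-box genes (1.94%, against 0.559% of genes at that level), classes known for ubiquitin ligases. AT3G59940 is named as F-box only in a synonym and was not counted. The RING, U-box and RING-H2 class made up 10 members (9.71%, against 1.95% of genes at that level), of which 9 fell in cbfs-1, and the 10 changes ranged from -4.47 to -1.18. AT3G18773 measured 250.1 and 204 in the Col libraries before cold, 16.4 and 27.0 after 3 h and 16.9 and 19.5 after 24 h, and in the mutant it measured 256 and 221, then 16.7 and 23.6, then 19.4 and 23.6. It was low in every cold library (log2 change -3.52, SE 0.27, adjusted p = 8.8e-05). AT5G47610 stood at 265 and 491 before cold and 96.5 and 229 after 3 h in cbfs-1 and was the 1 that did not pass (adjusted p = 0.213). PUB26 measured 462 and 435 in the Col libraries before cold, 106 and 125 after 3 h and 100.5 and 114 after 24 h, and in the mutant it measured 460.3 and 409.8, then 113 and 133, then 126 and 139.5. PUB26, a U-box ligase known to target the repressor of CBF genes MYB15 in the cold, was picked after its values were seen and fell with close replicates (log2 change -1.82, SE 0.14, adjusted p = 8.94e-05). Both kelch-repeat members, AT1G23390 and AT3G59940 (KFB50, also KMD4, which acts on phenylalanine ammonia-lyase), are among the 6 most abundant members. AT1G23390 measured 4397 and 2814 in the Col libraries before cold, 474 and 796 after 3 h and 397 and 427 after 24 h, and in the mutant it measured 4612 and 2928, then 493 and 883, then 372 and 422. AT3G59940 measured 3874 and 2412 in the Col libraries before cold, 663 and 1049 after 3 h and 1318 and 1079 after 24 h, and in the mutant it measured 4015 and 2415, then 573 and 1043, then 1170.5 and 1116. Both fell in cbfs-1 (log2 change -2.48, SE 0.34, adjusted p = 0.00213, and log2 change -2.01, SE 0.35, adjusted p = 0.00718). The 24 h libraries of AT1G23390 lay below those at 3 h in both genotypes, whereas those of AT3G59940 lay above.

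The 4 genes annotated with the uncharacterized domain DUF506 that had a Col 0 h mean of at least 100 were all members, and all 4 fell in cbfs-1, with changes from -3.05 to -1.99. AT2G20670 measured 2324 and 1995 in the Col libraries before cold, 232 and 356 after 3 h and 199 and 174 after 24 h, and in the mutant it measured 2772 and 2199.7, then 221 and 397, then 219 and 198. AT4G32480 measured 443 and 769 in the Col libraries before cold, 123 and 213 after 3 h and 42.3 and 32.2 after 24 h, and in the mutant it measured 589 and 803, then 135 and 221, then 64.7 and 44.4. Both were still low at 24 h, AT4G32480 with 24 h libraries below those at 3 h in each genotype. AT5G19120, which encodes an aspartyl protease family protein, showed the lowest 24 h level relative to 0 h of all members in both genotypes (log2 difference -4.005 in Col and -4.15 in cbfs-1). AT5G19120 measured 2273 and 1871 in the Col libraries before cold, 648 and 886 after 3 h and 123 and 134 after 24 h, and in the mutant it measured 2678 and 2157, then 604 and 932, then 113 and 158. The 3 groups of each genotype did not overlap, and it fell at 3 h in cbfs-1 (log2 change -1.68, SE 0.24, adjusted p = 0.00256). AT5G21940 measured 2945 and 2349 in the Col libraries before cold, 418 and 733 after 3 h and 422 and 501 after 24 h, and in the mutant it measured 3136 and 2504, then 290.4 and 701, then 291 and 378. AT5G21940, another abundant member, fell in cbfs-1 (-2.63, SE 0.38).

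VTC2, which encodes the GDP-L-galactose phosphorylase of vitamin C synthesis, was the most abundant member. VTC2 measured 8329 and 21517 in the Col libraries before cold, 2935 and 7678 after 3 h and 8661 and 10054 after 24 h, and in the mutant it measured 7745 and 17726, then 3223 and 7509, then 10748 and 10173. Replicate 2 was more than 2-fold above replicate 1 at both 0 h and 3 h in each genotype, and the cbfs-1 change did not pass (log2 change -1.25, SE 0.60, adjusted p = 0.263). BR6OX2 measured 320.0 and 333 in the Col libraries before cold, 131 and 122 after 3 h and 379 and 349 after 24 h, and in the mutant it measured 319.6 and 334, then 191 and 151, then 321 and 314. BR6OX2, the last enzyme of brassinosteroid synthesis, fell by a smaller amount with close replicates (log2 change -0.94, SE 0.12, adjusted p = 0.00147) and was back at 24 h. Of the 8 brassinosteroid genes listed it was the only member, and BZR1 and BEE1 rose in cbfs-1 while 5 did not pass. BEE3, described above, is a member that fell and is not on this list. CRK42, a receptor-like kinase gene, was at 208 and 338 before cold and 106 and 169 after 3 h in cbfs-1. AT5G02760 (APD7), a protein phosphatase gene, was at 585 and 345 before cold and 315 and 167 after 3 h. Neither passed (adjusted p = 0.196 and 0.298).

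Of the members, 3 are not annotated as protein-coding. GUT15 measured 1267 and 1328 in the Col libraries before cold, 439 and 444 after 3 h and 1722 and 1638 after 24 h, and in the mutant it measured 1335 and 1116, then 481 and 428, then 1503 and 1464. GUT15 is a non-coding RNA named as a gene with an unstable transcript. Its replicates were close, and it fell in cbfs-1 (log2 change -1.43, SE 0.10, adjusted p = 6.12e-05). At 24 h it was above its 0 h libraries in both genotypes. The gene of the precursor of miR850, listed as MIR850, was at 126 and 179 and 41.6 and 65.5 in Col but at 128 and 135 before cold and 95.5 and 91.5 after 3 h in cbfs-1 and did not pass (adjusted p = 0.39). AT1G34418, annotated as another RNA, fell in cbfs-1 (-1.34, SE 0.32). The counts say nothing of the mature miRNA. GUT15 and MIR850 each overlap another annotated gene, and 32 of the 103 members do (31.1%, against 31.8% of genes at that level), so without known strandedness their counts are uncertain.

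At 24 h the members had parted. They were classed by the log2 difference of 24 h from 0 h as back (above -0.5), still low (at most -1 with both 24 h libraries below both 0 h libraries) or between. In Col 78 were still low, 12 were between and 13 were back, and in cbfs-1 the numbers were 74, 15 and 14. Of all genes tested 10% were still low, 13.2% between and 76.8% back in Col, and 9.49%, 12.9% and 77.6% in cbfs-1. Both 24 h libraries lay below both 0 h libraries in 91 members in each genotype, which held for 37.8% of all genes in Col and 38.2% in cbfs-1. The summed level of the 8 root markers was 3678 to 3977 in Col and 3672 to 4243 in cbfs-1 at 0 h, and 2574 to 2682 and 2614 to 3314 at 24 h, lower with no overlap in both genotypes. Its part in the 24 h levels of members was not tested. As the members were chosen on Col 0 h and the 24 h groups bounded them, these shares are a description. A class was shared by both genotypes in 93 members, 74 of them still low, 9 between and 10 back. In Col 20 members had both 24 h libraries below both 3 h libraries and 42 had both above, against 36% and 35.6% of all genes tested. In cbfs-1 27 and 39 did, against 38% and 37.1%. The choice asked for low Col 3 h libraries, which favours Col 24 h libraries above them, so the Col counts follow in part from the choice. The 3 h and 24 h changes share the 0 h libraries. Side by side, those in Col ran from -4.21 and -1.51 in AT1G14200 to -1.43 and -4.005 in AT5G19120.

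**Figure D3:**
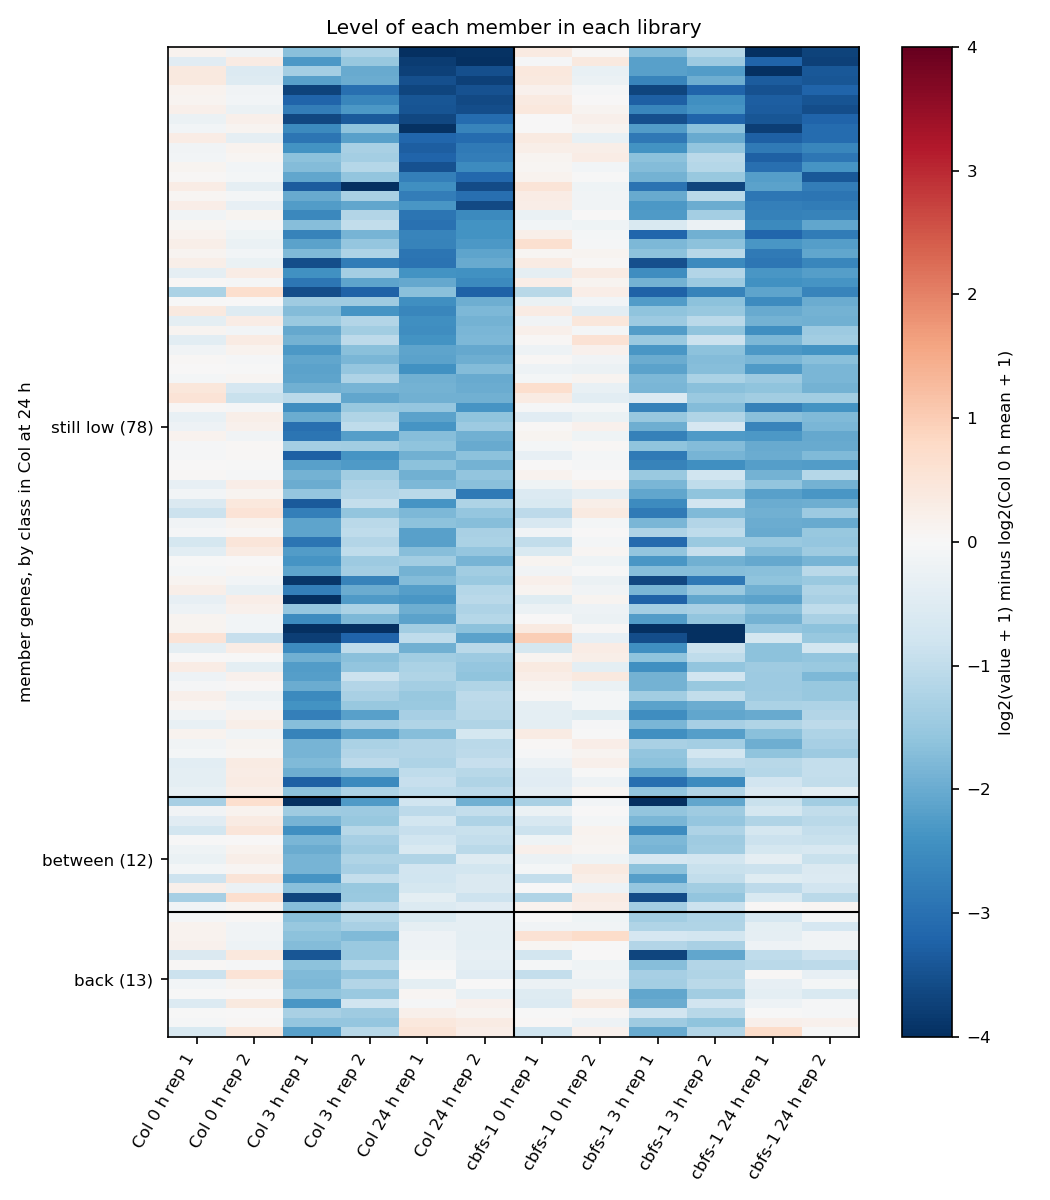
Level of each of the 103 members (rows) in each of the 12 libraries (columns), as log2(value + 1) minus log2 of the Col 0 h mean + 1, grouped by class in Col at 24 h. The 3 h columns are blue in both genotypes, paler in replicate 2, and the 78 rows of the upper block stay blue at 24 h while the 13 of the lowest block do not.

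The 6 members highest at 24 h relative to 0 h in Col were AT2G36630, GUT15, BR6OX2, AT5G47610, AT4G33040 and BBX15. AT2G36630 measured 598 and 1226 in the Col libraries before cold, 201 and 418 after 3 h and 1314 and 1095 after 24 h, and in the mutant it measured 519 and 1038, then 226 and 404, then 1502 and 894. The 24 h and 0 h libraries of this TauE/SafE family gene overlapped, and its 3 h change in cbfs-1 did not pass (log2 change -1.28, SE 0.49, adjusted p = 0.159). AT4G33040 measured 144 and 148 in the Col libraries before cold, 47.0 and 51.6 after 3 h and 154 and 119 after 24 h, and in the mutant it measured 102 and 157, then 33.5 and 54.7, then 109.9 and 94.2. This thioredoxin superfamily gene fell in cbfs-1 at 3 h (log2 change -1.55, SE 0.26, adjusted p = 0.00622). The 6 lowest at 24 h were AT5G19120, AT4G32480, AT3G10040, LBD41, AT3G18773 and AT2G20670, with differences from -4.005 to -3.53 in Col and from -4.15 to -3.41 in cbfs-1. All 6 were classed as still low in both genotypes.

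**Figure D4:**
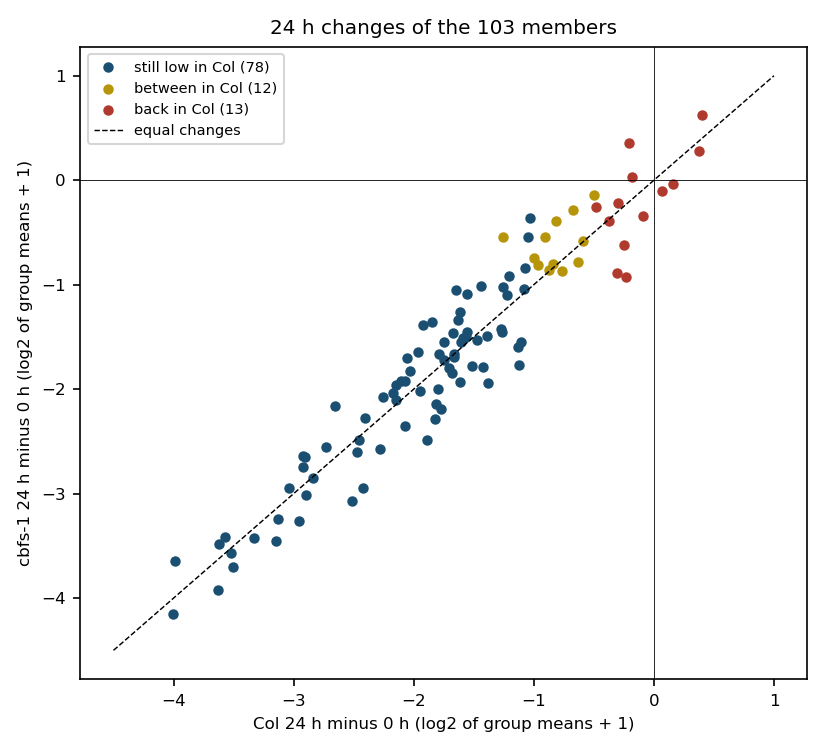
Difference of 24 h from 0 h of each of the 103 members in Col (x axis, log2 of group means + 1) and in cbfs-1 (y axis), coloured by class in Col. Points run from -4.005 to 0.40 in Col and lie near the dashed line of equal changes, with 78 members still low, 12 between and 13 back.

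Levels in the genotypes are set side by side without a test, since the choice used Col and, at 24 h, cbfs-1 too. The median log2 difference of cbfs-1 from Col was -0.02 at 0 h, 0.09 at 3 h and 0.02 at 24 h. Both cbfs-1 libraries lay above both Col libraries in 7 members at 0 h, 13 at 3 h and 11 at 24 h, and below in 9, 5 and 20. Over all genes tested such separation occurred upward in 13.8%, 13.1% and 22.0% and downward in 13.5%, 12.3% and 21.3% at the 3 times. The last criterion capped the cbfs-1 mean at 24 h for members and not for all genes. It disfavours upward separation at 24 h, so the 24 h counts follow in part from the choice. The 12 genes that the last criterion removed were AT1G15825, AT1G33055, MGDC, AT2G27420, EXPA8, AT2G44380, CYP78A6, SRG3, LSU2, AT5G42680, bHLH071 and ATSDI1. The means of AT1G33055 at 24 h lay under the floor of 3 reads in both genotypes (1.06 and 0 in Col and 0 and 1.81 in cbfs-1), so no difference was measured for it.

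The replicates differed in a way shared by the genotypes. Replicate 2 was above replicate 1 at 3 h in 92 members in Col and in 91 in cbfs-1, in 86 of them in both, with a median difference of 0.62 and 0.52 (log2) against 0.01 over all genes in each. Within replicate 1 the median log2 difference of 3 h from 0 h was -2.03 in Col and -1.92 in cbfs-1, and within replicate 2 it was -1.49 and -1.44. At 0 h 13 members were at least 2-fold apart between the Col replicates (12.6% of members, against 1.42% of genes at that level), 10 with replicate 2 higher. The choice used the Col 0 h libraries, so this share may follow in part from the choice. Between the cbfs-1 0 h replicates, which the choice did not use, 7 members were at least 2-fold apart. The 0 h replicate differences of Col and cbfs-1 had the same sign in 90 members and correlated across them at r = 0.93 (0.49 over all genes tested). Of the 22 members that did not pass in cbfs-1, 6 were at least 2-fold apart between the cbfs-1 0 h replicates, and of the 81 that fell 1 was. Such a gap widens the spread that the test uses for a gene, so these counts follow in part from the test.

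**Figure D5:**
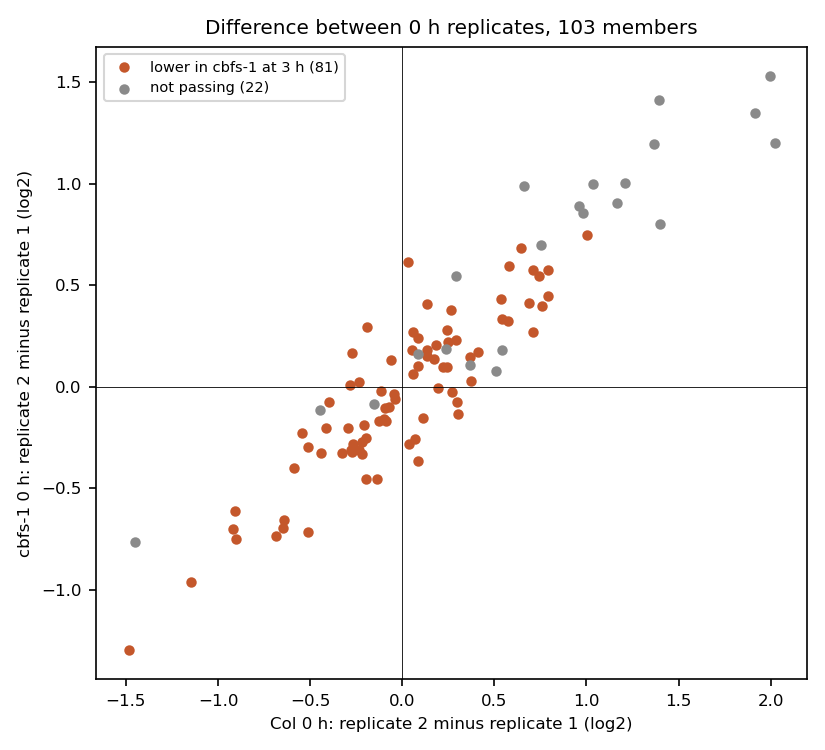
Replicate 2 minus replicate 1 at 0 h (log2) of each of the 103 members in Col (x axis) and cbfs-1 (y axis), with the 81 members that fell in cbfs-1 at 3 h in orange and the 22 others in grey. Points run along the diagonal, from AT5G05250, ASG4 and AT2G14247 at the upper right to LSU3 at the lower left.

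Exon number was not used in the choice and is described without a test. Of the 103 members 57 have 1 exon in their longest annotated transcript (55.3%), against 11.9% of the 14804 genes with an annotated transcript and a Col 0 h mean of at least 100. The median transcript length was 1416 bases in members and 1824 in those genes. All 8 SAUR members, 8 of the 10 RING and U-box members and 8 of the 20 transcription factors have 1 exon, whereas none of the 3 LOB-domain members does. Across the genes at that level 170 of 1758 with 1 exon fell in cbfs-1 at 3 h (9.67%), and 240 of 13046 with 2 or more exons (1.84%). Without the members the shares were 7.23% and 1.58%. Among members 47 of 57 with 1 exon and 34 of 46 with more exons fell.

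Other pathways were read in cbfs-1 at 3 h from the listed genes, beside the 2.41% of all genes that fell and the 6.43% that rose. Where a list of this size holds 1 call, its share is too near these to be read as a result about the list. Of 12 members of the nitrate list, 11 could be used, of which LBD37 and LBD38 fell, NIA1 and BT1 rose and 7 did not pass. Of 13 genes that are repressed by sugar or rise in the dark 6 rose and 0 fell. All 7 evening clock genes rose, with a median change of 3.46, PRR5 (7.79, SE 0.38) among them, and of 8 morning clock genes PRR9 rose and 7 did not pass. Of 6 type-A cytokinin regulators 4 rose and 2 did not pass. Of 13 expansin and XTH genes 2 fell, EXP3 and EXPA4, and 3 rose, and of 10 shade and PIF genes 2 rose. Of 9 gibberellin genes GAI fell and RGA1 rose, and of 7 glucosinolate genes CYP79F1 fell and 6 did not pass. Among 6 aquaporin, 6 heat shock, 5 light-harvesting and Rubisco, 8 root marker and 4 reference genes 0 passed in either direction, with medians of -0.17, -0.10, 0.00, -0.04 and 0.08. Of these lists, low sulfur, nitrate and brassinosteroid held members, 2, 1 and 1 in number, besides AT1G04770.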

How the data were processed

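The authors deposited 1 table of signal values, that is, read counts per gene scaled by DESeq2 size factors, going by its name and its values. The submitters' processing notes name TopHat2 2.1.0, Cufflinks 2.2.1, HTSeq 0.6.0, DESeq2 and the TAIR10 build, with no roles or settings, and the sources used here do not state strandedness. Every value was a whole multiple of 1 step (100% within 0.001 of a read), so reads could be recovered. The main test was limma 3.58.1 in R 4.3.3 on log2(value + 1), with 6 group means over 12 libraries and a trend, on the 20666 genes that reached 10 in 2 or more libraries. edgeR 4.0.16 and DESeq2 1.42.0 on recovered reads were alternatives, and all 3 were tested on simulated data. Changes on the log2(value + 1) scale understate those of low genes. Means of members are over 2 libraries.

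The members, lists and search letters were chosen with earlier results of these data known. Named members are the largest falls, the most abundant, the extremes at 24 h and in cbfs-1, members of the lists, up to 4 SAUR genes, up to 8 transcription factors, and those at the limit of the choice. Genes named beyond these, and the annotation classes, were picked after their values were seen. Of 157 listed genes 153 entered, and for the other 4 locus and symbol did not match or the locus had no row. RefSeq names for TAIR10.1 matched 24385 loci.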

Additional observations from a re-analysis of the deposited data

How the results depend on the processing

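Of the results on members, the count that fell in cbfs-1 at 3 h (81) stayed between 73 and 88 under 9 alternatives of scale, filter, tool and libraries, including edgeR (82) and DESeq2 (88), and was 95 with a replicate block, which called 1038 of all genes. Leaving out 1 library gave 44 to 78 members, and 113 to 368 genes over the whole table, against 499 with all libraries. That count over all genes was 207 with the 4 libraries of the comparison alone. The labels do not say what the replicate numbers share. Deviations of same-numbered libraries correlated at 0.37 between cbfs-1 at 0 h and 3 h, and 14 of the 22 members that did not pass were called with the block, among them AT2G14247, VTC2, AT4G38860, AT5G05250, CRK42 and AT5G47610 (adjusted p from limma 0.0146 to 0.0496). The median change of members was -1.64 in the main fit, -1.95 to -1.38 without single libraries and -1.65 to -1.49 under the other settings. The range without single libraries reflects the difference between the 2 replicates of a group. The members still low at 24 h were 70 to 83 in Col and 68 to 78 in cbfs-1. With a limit of -1 in the choice there would be 191 members and with -1.6 there would be 62. For the 40 named members no direction changed under the 14 alternatives, and 36 of the 559 single values lost and 12 gained a call. The lowest 3 h value of a member, 7.66, was near the floor of 3 reads, so the folds of low genes depend on the scale. TMM scaling, with 1 added to CPM, gave -2.72 for AT3G18773 (-3.52 on the log2(value + 1) scale) and -1.61 for AT2G14247 (-2.52).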
